A study of Mus musculus with 6 samples.

Results

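The axon guidance genes described here are the semaphorins, plexins, neuropilins, ephrins, Eph receptors, Slits, Robo receptors, netrins and the netrin receptors *Dcc* and *Unc5a* to *Unc5d*. Members were found by gene symbol, and 69 of the 59485 genes in the deposited table carried such a symbol. RNA was sequenced from whole sciatic nerve at postnatal day (P) 4, and the study asked how loss of ADAR1, an enzyme that edits adenosines in double-stranded RNA, alters gene regulation in the Schwann cells (SCs) that ensheath and myelinate axons. There were 3 control-labelled libraries, from animals that the labels call wild-type and that, per the study's methods, carried floxed *Adar1* alleles and the R26R reporter without Cre. The other 3 libraries were labelled mutant, of genotype Ht-PA-Cre; Adar1fl/fl;R26R, each from 1 animal. In these animals Cre recombinase is driven by the human tissue plasminogen promoter, which is active in neural crest (NC) cells and so in their derivatives, SCs included, while R26R is the YFP tracer of the recombined cells. Endothelial cells, macrophages, blood and muscle of the same nerve do not derive from the NC and keep their *Adar1* alleles.

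The libraries held between 50938349 and 78250094 reads on genes. Each value below is a normalised read count, that is, reads on the constitutive regions of a gene divided by a size factor for the library, and 1 read was worth 0.727 to 1.27 of these units. Values were not divided by gene length, so they compare libraries for a given gene and not genes with each other. The gene *Adar* was listed at 1602, 2066 and 1133 in the control-labelled libraries and at 11768, 9311 and 9773 in the mutant-labelled ones. The whole-gene count was thus higher in every mutant-labelled library (log2 fold change 2.72, SE 0.20, adjusted p = 4.1e-05, limma), against the direction that a deletion predicts, and it does not separate deleted from remaining exons. The libraries are therefore called by their labels throughout. *Xist* exceeded 1000 in 2 control-labelled libraries and 1 mutant-labelled library, so the sexes were not balanced. A nerve library sums all cell types, and fewer cells of a type cannot be told apart from less RNA per cell.

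Axon guidance ligands steer growth cones, the motile tips of growing axons, and they also position glia, vessels and fibroblasts. Semaphorins are secreted or membrane-bound cues, most of which signal through plexins, and most of the secreted class 3 members need a neuropilin as coreceptor. Ephrins are membrane-bound ligands of the Eph receptor tyrosine kinases and can signal back into their own cell, with the A type anchored by lipid and the B type spanning the membrane. Slits are secreted repellents read by Robo receptors, and netrins attract through DCC or repel through UNC5 receptors. In peripheral nerve, EphB signaling in SCs is known for sorting these cells into cords after injury, and netrin, Slit and semaphorin cues are made by SCs and by the fibroblasts around them.

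The guidance genes changed in both directions. Of the 68 members that could be tested, 14 rose and 18 fell in the mutant-labelled libraries, where a change needed an unadjusted p at or under 0.05 and at least 2-fold in limma's moderated test of log2(value + 1). Together these 32 genes made up 47.1% of the members tested, against 24.2% of the 25802 genes tested in all. The rises stand against 13.9% of all genes and the falls against 10.4%. These families were proposed with earlier results of these data known, so the shares are a description and the excess was not tested. A p adjusted by the Benjamini-Hochberg method over all tested genes was at or under 0.05 for 38 members at any size of change (55.9%), of which 14 were higher and 24 lower, against 35% of all genes, 19% higher and 16% lower. The 3 genes among the 32 that missed this adjusted limit were *Epha1*, *Robo2* and *Dcc*, while 9 members reached it with a change under 2-fold.

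The values of the mutant-labelled and control-labelled libraries did not overlap for 43 members (63.2%), 16 of them higher and 27 lower, against 49.2% of all genes, 25.9% higher and 23.3% lower. The median log2 fold change of the members was -0.02 against 0.03 over all genes, since rises and falls offset each other, whereas the median size of the change, sign removed, was 0.96 against 0.63. Among the 35 ligands, 7 rose and 11 fell (51.4%), and among the 33 receptors tested, 7 rose and 7 fell (42.4%). By family, 45% of semaphorins, 33.3% of plexins and 52.4% of ephrins and Eph receptors passed, against 24.2% of all genes. The share was 57.1% for Slits with Robo receptors and 44.4% for netrins with their receptors, and each family has few genes. The member left untested was *Epha10*, an Eph receptor without kinase activity, which was at 0 reads in all control-labelled libraries and at 32, 0 and 2 reads in the mutant-labelled ones. The authors' notes do not state whether counting used the strand, and 34 members overlap another listed gene on the same strand and 35 on the opposite one, so reads there can be shared with a neighbour.

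**Figure D1:**
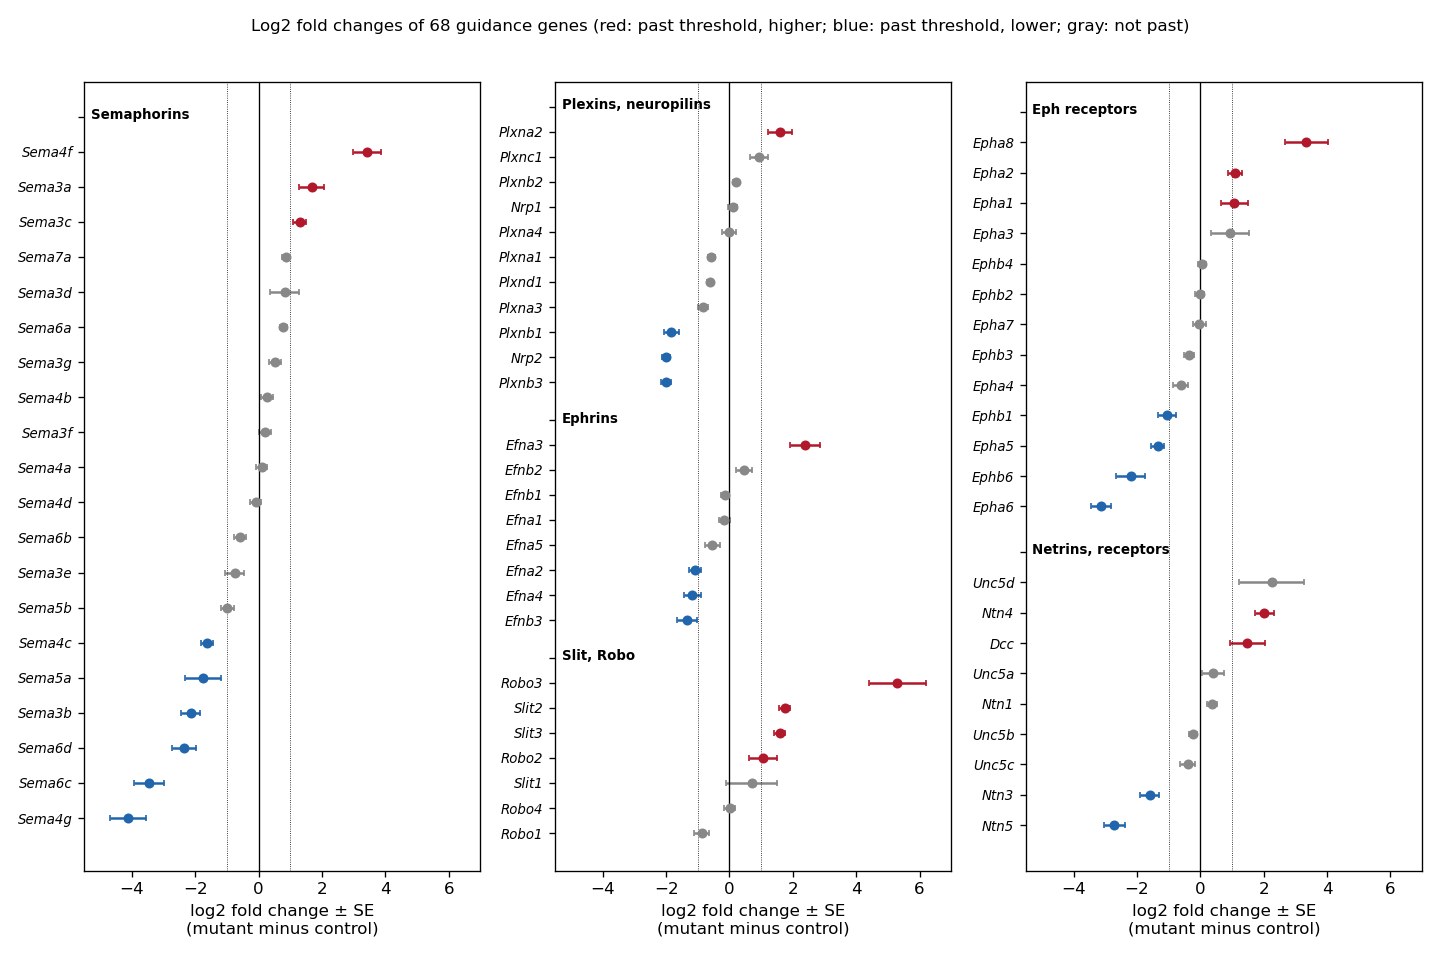
Log2 fold change of each of the 68 tested guidance genes, mutant-labelled minus control-labelled, on the horizontal axis, with genes on the vertical axis grouped by family; points are limma estimates on log2(value + 1), bars are ± SE over 3 libraries per group, and dotted lines mark 2-fold. The 14 red genes rose and the 18 blue genes fell, and the range runs from -4.13 for *Sema4g* to 5.30 for *Robo3*.

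The first 300 bases around the start of transcription (250 before and 50 after) were searched for 3 short motifs on both strands, because ADAR1 is known to hold back interferon signaling and members could share such a sequence. RefSeq promoter sequences of GRCm38.p6, which has the mm10 coordinates, were matched by symbol for 59 of the 69 members with 75 windows. The core of the interferon-stimulated response element, which is TTTC, any 2 bases and TTTC again, was present in 2 of these windows (2.67%) and in 3.44% of 32851 windows of all genes. The motif of STAT factors, TTCNNNGAA, was present in 3 (4%) against 8.3%, and a loose pattern of NF-kappaB sites, which is GGG and CC with any 5 bases between, in 52 (69.3%) against 50.8%. The first pair of motifs was thus rare in promoters of either kind, and the last pattern was in most of them. The stretches below, 5′ to 3′ on the gene's own strand, show the response element core of *Plxnc1* and *Sema6b* and the STAT motif of *Efna3*, the only member with either motif whose change reached 2-fold. Capitals mark the match, which begins 118, 146 and 217 bases before the start.
*Plxnc1* (chr10:94944934-94944983, minus strand): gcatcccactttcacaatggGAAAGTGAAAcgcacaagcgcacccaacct
*Sema6b* (chr17:56140460-56140509, minus strand): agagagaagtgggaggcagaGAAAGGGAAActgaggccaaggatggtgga
*Efna3* (chr3:89323128-89323176, minus strand): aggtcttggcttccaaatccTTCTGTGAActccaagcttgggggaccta

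Of the 20 semaphorins, 3 rose and 6 fell, and 13 reached the adjusted limit of 0.05. The secreted class 3 was split, with *Sema3a* and *Sema3c* higher, *Sema3b* lower and the other 4 of its 7 genes short of the threshold. *Sema3a* (GSMG0028820, chr5:13396784-13603485), the classical collapsing signal for sensory growth cones, was listed at 186.6, 145.5 and 63.4 in the control-labelled libraries and at 430, 416 and 315 in the mutant-labelled ones. The ranges were separate, with the lowest mutant-labelled library above the highest control-labelled one (log2 fold change 1.67, SE 0.39, adjusted p = 0.0112, limma). *Sema3c* (GSMG0028856, chr5:17574280-17730268), a cue with roles in NC migration and vessel growth, had 2632, 1968 and 1475 against 4930, 4218 and 5359, a mean of 2025 ± 580 (SD, n = 3) against 4836 ± 576. All 3 mutant-labelled libraries lay above every control-labelled one (1.29, SE 0.20, adjusted p = 0.00156, limma).

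*Sema3b* (GSMG0041278, chr9:107597674-107609241), also a secreted ligand, went the other way. It was listed at 38394, 45596 and 46732 in the control-labelled libraries and at 16096, 5981 and 9645 in the mutant-labelled ones. The mean fell from 43574 ± 4522 to 10574 ± 5121, 4.12-fold, and the groups were far apart although the mutant-labelled libraries spread widely among themselves (log2 fold change -2.15, SE 0.30, adjusted p = 0.000912, limma). Of the remaining class 3 genes, *Sema3d* (0.82), *Sema3e* (-0.76), *Sema3f* (0.20) and *Sema3g* (0.53) did not pass on either criterion with all libraries. When 1 library was left out, *Sema3d* ran from 0.23 to 1.23. *Sema3e* passed both without mutant-labelled replicate 1 (-1.03, adjusted p = 0.0318, limma).

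Among the 6 membrane-spanning class 4 semaphorins, *Sema4f* rose, *Sema4c* and *Sema4g* fell, and *Sema4a* (0.09), *Sema4b* (0.26) and *Sema4d* (-0.09) had log2 fold changes near 0. *Sema4f* (GSMG0033231, chr6:82911886-82939769), a cue known for keeping SCs in contact with axons, was listed at 12.2, 24.6 and 10.1 against 172, 154 and 167. The mutant-labelled libraries lay close together at 165 ± 9.27, 10.5-fold above the mean of 15.6 ± 7.8 in the others (log2 fold change 3.41, SE 0.44, adjusted p = 0.000615, limma), and the comparison rests on 45 against 566 reads. *Sema4g* (GSMG0019737, chr19:44989260-45003396) had the deepest fall of all members, from 9696, 10697 and 11006 to 1511, 220 and 637. The means were 10466 ± 684 and 789 ± 659, 13.3-fold apart, and the mutant-labelled libraries differed from each other by several-fold while the control-labelled ones hardly varied (-4.13, SE 0.56, adjusted p = 0.000805, limma). Its log2 fold change was -4.80 without mutant-labelled replicate 1 and -3.41 without replicate 2. *Sema4c* (GSMG0001472, chr1:36548639-36558381), a ligand of plexin B2, fell from 7580, 7114 and 7717 to 3440, 2030 and 2052 with no overlap (-1.62, SE 0.19, adjusted p = 0.00041, limma).

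All 4 class 6 genes, membrane ligands of A plexins, reached the adjusted limit, and they did not share a direction. *Sema6c* (GSMG0024647, chr3:95160420-95174050) was listed at 7001, 7636 and 6596 in the control-labelled libraries and at 1473, 303 and 599 in the mutant-labelled ones, a fall from 7078 ± 524 to 792 ± 608 (log2 fold change -3.45, SE 0.47, adjusted p = 0.000771, limma; -4.05 without mutant-labelled replicate 1). *Sema6d* (GSMG0021705, chr2:124089966-124667789) had 9593, 8828 and 7825 against 2578, 811 and 2313 (-2.36, SE 0.38, adjusted p = 0.00188, limma). For both genes the control-labelled libraries were tightly grouped and the mutant-labelled replicate 2 was the lowest of the 6. *Sema6a* was higher at 1207, 1091 and 1137 against 2221, 1882 and 1803, and *Sema6b* lower at 711, 672 and 535 against 508, 394 and 373, both without overlap and under 2-fold (0.78, adjusted p = 0.00157, and -0.59, adjusted p = 0.039, limma). The adjusted p of *Sema6b* exceeded 0.05 in 8 of 18 fits, up to 0.12.

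The class 5 genes, which carry thrombospondin repeats, were both lower, and *Sema7a*, a lipid-anchored semaphorin that signals through integrins and plexin C1, was higher. *Sema5a* (GSMG0013069, chr15:32244801-32696341) was listed at 221, 216 and 179 against 116, 21.2 and 83.1. The groups did not overlap (log2 fold change -1.77, SE 0.57, adjusted p = 0.0424, limma), but replicate 2 of the mutant-labelled libraries weighed on the size, which was -1.05 without it, and the adjusted p exceeded 0.05 in 8 of 18 fits, up to 0.106 without a control-labelled library. *Sema5b* had 1652, 2248 and 1806 against 1318, 768 and 847, just under 2-fold (-0.99, adjusted p = 0.00805, limma), and *Sema7a* had 2119, 1816 and 2161 against 4006, 3813 and 3189 (0.85, adjusted p = 0.00114, limma). Both were separate between the groups.

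Among the receptors of the semaphorins, 7 of 9 plexins reached the adjusted limit (77.8% against 35% of all genes). Of the 9, 3 passed the threshold of p and 2-fold (33.3% against 24.2% of all genes). *Plxnb3* (GSMG0041845, chrX:73757054-73772514), a receptor of SEMA5A found on glia, was listed at 17314, 18933 and 19766 in the control-labelled libraries and at 5888, 3610 and 4696 in the mutant-labelled ones. It fell from 18671 ± 1247 to 4732 ± 1139, with all mutant-labelled values far below the others (log2 fold change -2.01, SE 0.16, adjusted p = 5.97e-05, limma). *Plxnb1* (GSMG0040115, chr9:109095436-109119915), the receptor of SEMA4D, fell too, from 4210, 4715 and 5118 to 2020, 1048 and 1059 (-1.83, SE 0.24, adjusted p = 0.000659, limma). The third B plexin, *Plxnb2*, had a log2 fold change of 0.20 with adjusted p = 0.178 (limma).

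*Plxna2* (GSMG0001256, chr1:194619829-194816853), a receptor for class 3 and class 6 semaphorins, was the only plexin that rose by 2-fold or more. Its values were 92.2, 35 and 65.9 in the control-labelled libraries and between 181.4 and 186.2 in the 3 mutant-labelled ones, where the SD was 2.41 (log2 fold change 1.61, SE 0.38, adjusted p = 0.0124, limma). The other members of the A type were lower by less than 2-fold (*Plxna1* -0.57, adjusted p = 0.00641, and *Plxna3* -0.83, adjusted p = 0.00469, limma) or had a value near 0 (*Plxna4* -0.02, 95% interval -0.53 to 0.50). *Plxnc1*, the receptor of SEMA7A, was higher at 310, 326 and 172 against 637, 468 and 403 (0.93, adjusted p = 0.0373, limma), as its ligand was, and its adjusted p exceeded 0.05 in 5 of 18 fits, up to 0.125. *Plxnd1*, an endothelial receptor of SEMA3E, was lower at 12037, 12087 and 12327 against 7990, 8437 and 7313 (-0.62, adjusted p = 0.000896, limma).

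The neuropilins, coreceptors of most class 3 semaphorins and of VEGF, parted from each other. *Nrp2* (GSMG0000350, chr1:62703317-62818692) was listed at 7294, 7175 and 6992 in the control-labelled libraries and at 2112, 1600 and 1692 in the mutant-labelled ones. The fall from 7154 ± 152 to 1801 ± 273 had the smallest adjusted p of the members (log2 fold change -2.00, SE 0.12, adjusted p = 1.42e-05, limma). *Nrp1* had 4210, 3876 and 3315 against 3628, 4054 and 4540, with overlapping ranges (0.10, 95% interval -0.19 to 0.39, adjusted p = 0.567, limma).

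Of the 8 ephrins, 1 rose and 3 fell. *Efna3* (GSMG0025649, chr3:89314951-89322879) was listed at 22.2, 28.3 and 11.4 in the control-labelled libraries and at 117, 133 and 75.2 in the mutant-labelled ones, without overlap (log2 fold change 2.39, SE 0.48, adjusted p = 0.0059, limma). Its neighbour *Efna4* (chr3:89333393-89338030), a ligand of the same receptor type, moved the opposite way, from 428, 464 and 416 to 265, 200 and 136 (-1.17, SE 0.26, adjusted p = 0.00874, limma). The groups were separate for both genes. *Efna2* had 1741, 1810 and 1633 against 1071, 827 and 618 (-1.08, SE 0.19, adjusted p = 0.00316, limma), and *Efnb3*, a membrane-spanning ligand known for midline repulsion, had 1003, 965 and 867 against 540, 453 and 207 (-1.35, SE 0.32, adjusted p = 0.0128, limma). Mutant-labelled replicate 3 was the lowest library for these 3 falling ephrins, and without it none of them reached 2-fold (-0.92, -0.87 and -0.93 for *Efna4*, *Efna2* and *Efnb3*). That library also had the highest sum of skeletal muscle markers (323684), whose part in these values was not tested. *Efna1* (-0.16), *Efna5* (-0.54), *Efnb1* (-0.13) and *Efnb2* (0.47, 95% interval -0.09 to 1.04) did not pass.

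Among the EphA receptors tested, 3 of 8 rose and 2 fell. *Epha8* (GSMG0028522, chr4:136929420-136956816) had few reads, 8 in the control-labelled libraries together and 142 in the others, and was listed at 2.22, 1.89 and 5.07 against 56.7, 30.9 and 31.7. The groups were well apart (log2 fold change 3.35, SE 0.67, adjusted p = 0.00565, limma), and the ratio of summed reads was 14.3 (95% interval 7.04 to 33.7, counting error only). With 10 in place of 1 added before the logarithm, the log2 fold change was 1.90. Only the mutant-labelled libraries brought *Epha8* to the minimum mean of 10 for testing (control-labelled mean 3.06), so it could be called only as a rise. With no filter on low values its adjusted p was 0.0118 (limma). *Epha2* (GSMG0027317, chr4:141301221-141329383), an epithelial receptor that many ephrin-A ligands bind, had 1891, 1369 and 1223 against 4020, 2469 and 3162. All mutant-labelled values were higher (1.10, SE 0.21, adjusted p = 0.00455, limma), although the change was under 2-fold without control-labelled replicate 3 (0.97) or mutant-labelled replicate 1 (0.93). *Epha1* passed on the unadjusted p and the size alone, with overlapping values of 133, 46.3 and 59.6 against 132, 195 and 136 (1.07, SE 0.43, adjusted p = 0.0864, limma). The ratio of its group means was 1.93, and it no longer passed under 10 other settings, among them edgeR (0.95) and DESeq2 (0.95).

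*Epha6* (GSMG0015872, chr16:59653483-60605532) fell 8.79-fold, from 346, 489 and 536 in the control-labelled libraries to 72, 37.6 and 46.5 in the mutant-labelled ones (log2 fold change -3.14, SE 0.32, adjusted p = 0.000186, limma). *Epha5*, which with ephrin-A ligands helps lay out topographic maps in the brain, had 670, 447 and 644 against 216, 242 and 224 (-1.34, SE 0.20, adjusted p = 0.00143, limma). Neither gene showed overlap. The other 3 EphA receptors tested, *Epha3* (0.94), *Epha4* (-0.62, adjusted p = 0.0834, limma) and *Epha7* (-0.03), did not pass.

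In the EphB type no receptor rose and 2 of 5 fell. *Ephb6* (GSMG0031755, chr6:41605482-41620508), which lacks kinase activity, was listed at 6533, 9585 and 8886 in the control-labelled libraries and at 4054, 912 and 1550 in the mutant-labelled ones, with means of 8334 ± 1599 and 2172 ± 1661. The groups were separate and replicate 1 of the mutant-labelled libraries stood well above the other 2 (log2 fold change -2.20, SE 0.46, adjusted p = 0.00666, limma; -2.79 without that replicate). *Ephb1* had 329, 372 and 341 against 256, 137 and 134 (-1.05, SE 0.28, adjusted p = 0.0208, limma), close to the 2-fold limit. It no longer passed under 7 other settings, among them edgeR (-0.97), DESeq2 (-0.98) and the fits without control-labelled replicate 2 (just under 2-fold) or mutant-labelled replicate 2 (-0.90) or 3 (-0.88), and its adjusted p exceeded 0.05 in 5 of 18 fits. *Ephb2*, the receptor through which fibroblast ephrins sort SCs, had 4105, 4622 and 4262 against 5114, 3512 and 4370, with means of 4330 ± 265 and 4332 ± 802 (-0.01, 95% interval -0.33 to 0.31), and *Ephb4*, a venous receptor of ephrin-B2, had 4899, 4732 and 4193 against 5105, 5274 and 4079 (0.06, 95% interval -0.22 to 0.34). For these receptors a 2-fold change in either direction lay outside the 95% interval. *Ephb3* had a log2 fold change of -0.35.

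Among the Slits and Robo receptors, 4 of 7 rose and none fell by 2-fold. The ligand *Slit2* (GSMG0029146, chr5:47983154-48307733) was listed at 1337, 1398 and 906 in the control-labelled libraries and at 4143, 3448 and 4395 in the mutant-labelled ones, an increase from 1214 ± 268 to 3995 ± 490 (log2 fold change 1.74, SE 0.18, adjusted p = 0.000197, limma). *Slit3* (GSMG0005034, chr11:35121456-35708499) had 1653, 1084 and 1090 against 3459, 4230 and 3558 (1.58, SE 0.18, adjusted p = 0.000305, limma). Each mutant-labelled library exceeded every control-labelled one for both ligands, by about 3-fold in the mean (3.29 and 2.94). *Slit1*, the Slit of the central nervous system, was low and overlapped, at 17.8, 5.67 and 36.7 against 48, 30.9 and 11.9 (0.70, SE 0.81, adjusted p = 0.54, limma).

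The Robo receptors did not move as a group. *Robo3* (GSMG0040581, chr9:37415669-37433175), a divergent receptor known from commissural axons, had the largest rise of all members, from 2.22, 0 and 8.87 to 190, 67.5 and 147. Only 9 reads in the control-labelled libraries stood against 480 in the others, a ratio of summed reads of 42.8 (95% interval 22.4 to 94.2, counting error only). The groups were separate (log2 fold change 5.30, SE 0.89, adjusted p = 0.00232, limma), with an estimate of 4.47 without control-labelled replicate 2 and 6.12 without control-labelled replicate 3. It also depended on the constant added before the logarithm, at 6.60 with 0.1 and 3.35 with 10 in place of 1. *Robo3* reached the minimum mean of 10 for testing only in the mutant-labelled libraries (control-labelled mean 3.7), so it could be called only as a rise. With no filter on low values its adjusted p was 0.00283 (limma). *Robo4* (chr9:37401896-37415115), an endothelial receptor encoded beside *Robo3*, had 2446, 2975 and 2778 against 3601, 2381 and 2426, with overlap (0.01, 95% interval -0.37 to 0.40). *Robo2* passed on the unadjusted p and the size alone at 32.2, 26.5 and 44.4 against 55.3, 110 and 59.3 (1.06, SE 0.45, adjusted p = 0.0985, limma), and 25 other listed genes overlap it on its strand. It no longer passed under 8 other settings, among them 10 in place of 1 added (0.90) and the fit without mutant-labelled replicate 2 (0.75). *Robo1*, a main receptor of Slit2, was lower without overlap, at 550, 421 and 489 in the control-labelled libraries and at most 318 in the mutant-labelled ones, with means of 487 ± 64.2 and 271 ± 75.2 (-0.88, SE 0.25, adjusted p = 0.0252, limma), which is under 2-fold with all libraries. Leaving out 1 library gave -0.62 (without mutant-labelled replicate 1) to -1.02 (without mutant-labelled replicate 2), and the adjusted p exceeded 0.05 in 6 of 18 fits.

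Of the 4 netrins, 1 rose and 2 fell. *Ntn4* (GSMG0003415, chr10:93641049-93745972), a netrin of basement membranes and vessels, was listed at 170, 112 and 79.8 in the control-labelled libraries and at 481, 534 and 403 in the mutant-labelled ones (log2 fold change 2.02, SE 0.30, adjusted p = 0.0012, limma). *Ntn5* (GSMG0034480, chr7:45684021-45694556) fell from 402, 439 and 436 to 104, 56 and 45.5 (-2.71, SE 0.33, adjusted p = 0.000441, limma), and *Ntn3* from 299, 286 and 324 to 130, 117 and 65.3 (-1.59, SE 0.30, adjusted p = 0.00426, limma). All 3 genes were separate between the groups. *Ntn1*, the best-known guidance netrin, had 8080, 6971 and 6487 against 9791, 10798 and 7465, with overlapping ranges (0.37, 95% interval 0.03 to 0.71, adjusted p = 0.0865, limma). Its adjusted p was at or under 0.05 in 4 of 18 fits, down to 0.0203 without mutant-labelled replicate 3.

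No netrin receptor reached the adjusted limit of 0.05 in limma's test (0 of 5), and 1 passed on the unadjusted p and the size. *Dcc* was low, at 37.8, 22.7 and 15.2 against 90.2, 88.8 and 39.6, and passed on the unadjusted p and the size alone (log2 fold change 1.49, SE 0.54, adjusted p = 0.0605, limma). It no longer passed without control-labelled replicate 3 (1.19), mutant-labelled replicate 1 (1.30) or mutant-labelled replicate 2 (1.31). Its adjusted p ran from 0.0375 with DESeq2 to 0.17 without mutant-labelled replicate 1, and was at or under 0.05 in 6 of 18 fits. On its strand 26 other listed genes overlap it. *Unc5b*, the endothelial repulsive receptor, had 1813, 1770 and 1782 against 1518, 1769 and 1311 (-0.23, 95% interval -0.53 to 0.06), and *Unc5a* (0.39) and *Unc5c* (-0.40) also did not pass. *Unc5d* was near the floor of detection, with 12 reads against 64 (2.26, SE 1.03, adjusted p = 0.123, limma), and its log2 fold change ran from 1.31 to 3.05 when 1 library was left out.

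**Figure D2:**
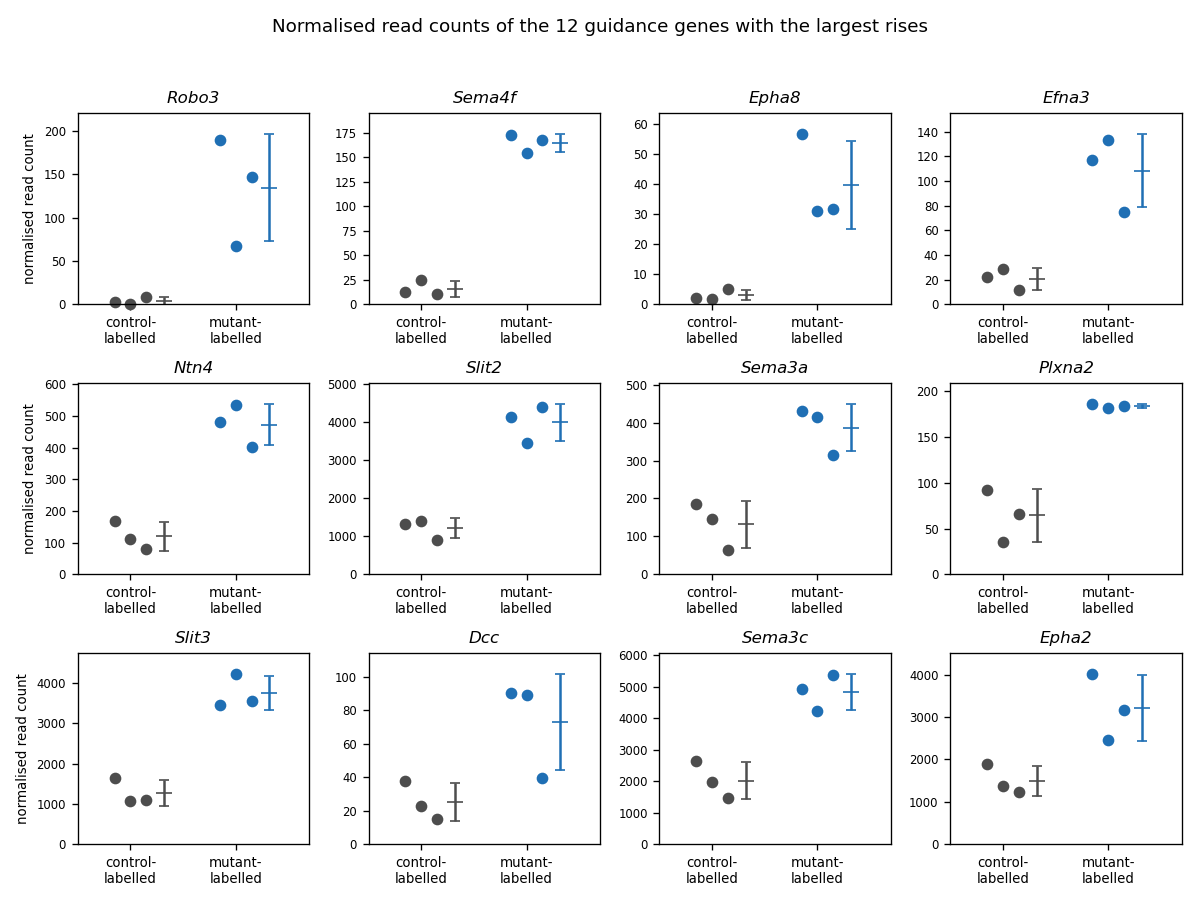
Normalised read counts of the 12 guidance genes with the largest rises past the threshold, 1 panel per gene, with control-labelled and mutant-labelled libraries on the horizontal axis; points are libraries and bars are the mean ± SD of 3. The mutant-labelled points lie above all control-labelled points in each panel, from *Robo3* (3.7 ± 4.62 against 135 ± 62.1) to *Epha2* (1494 ± 351 against 3217 ± 777). Only genes without overlap were eligible, so this separation was set by the choice of genes.

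**Figure D3:**
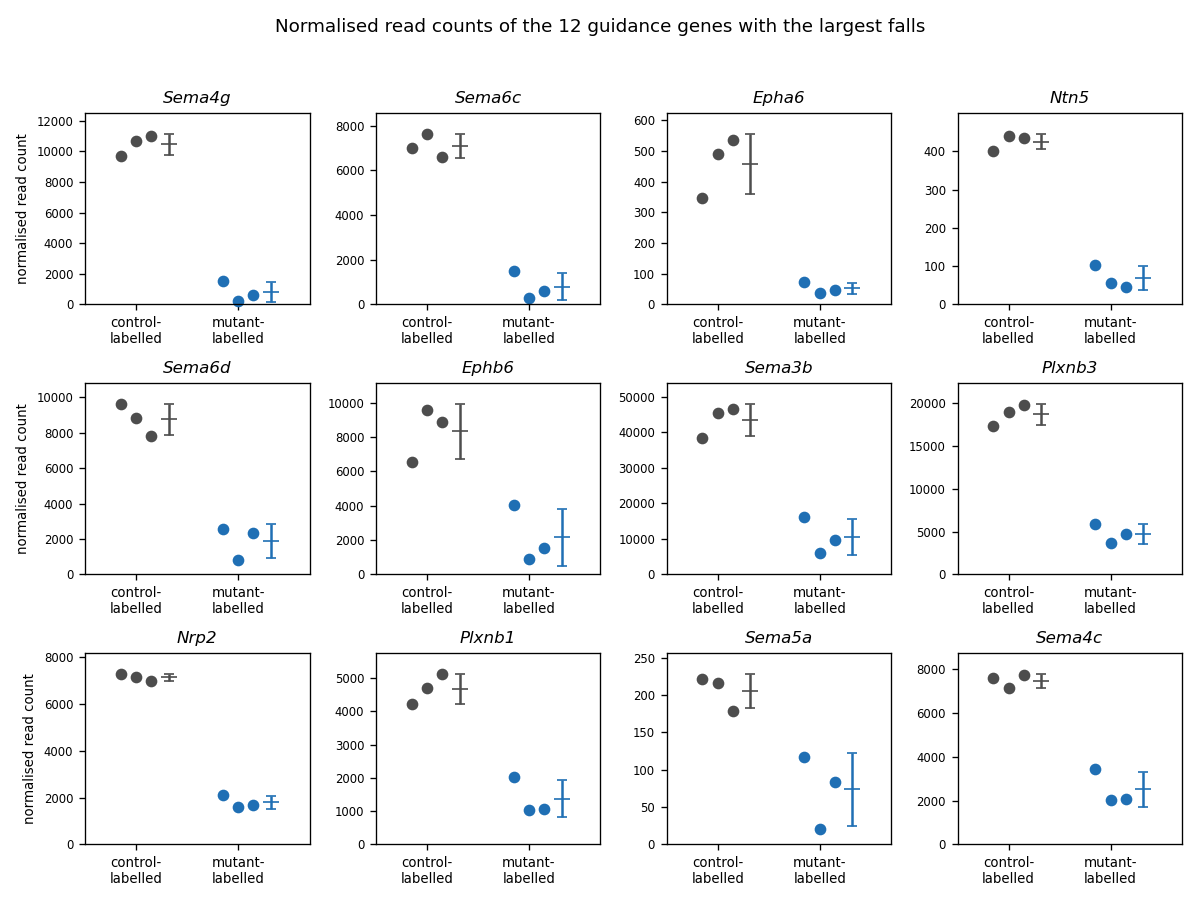
Normalised read counts of the 12 guidance genes with the largest falls past the threshold, drawn as for the genes that rose. The mutant-labelled points lie below all control-labelled points in each panel, from *Sema4g* (10466 ± 684 against 789 ± 659) to *Sema4c* (7470 ± 316 against 2507 ± 808). Only genes without overlap were eligible here too.

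The mutant-labelled libraries did not share 1 level for the genes that fell. Replicate 1 had the highest mutant-labelled value for 17 of the 18 lowered members (94.4%), the exception being *Epha5*, whereas it was the highest for 53.9% of the 2671 lowered genes of the whole table. The myelin gene *Mbp*, not a member, was also highest there (137354, 13210 and 42987 in mutant-labelled replicates 1, 2 and 3). This order was thus not particular to the members. Among the SC markers, *S100b* (1535, 686 and 887 in mutant-labelled replicates 1, 2 and 3) and *Erbb3* (4207, 2648 and 3912), which fell, were also highest in replicate 1, as were *Foxd3* and *Ngfr*, whereas *Cdh19* and *Ncam1* were highest in replicate 3 and *Gfap* in replicate 2. As a share of the mean of the control-labelled libraries, the 18 members had a median of 39.9% in replicate 1, 20.8% in replicate 2 and 23.1% in replicate 3. *Sema4g* stood at 14.4, 2.1 and 6.09%, *Sema6c* at 20.8, 4.28 and 8.47% and *Ephb1* at 73.7, 39.5 and 38.4%. For the 14 raised members the order was mixed, with replicate 1 highest for 7, replicate 2 for 5 and replicate 3 for 2, and the median was 3.34, 3.26 and 2.82 times the mean of the control-labelled libraries. Replicate 1 also had the most reads, and the part of depth in this order was not tested.

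**Figure D4:**
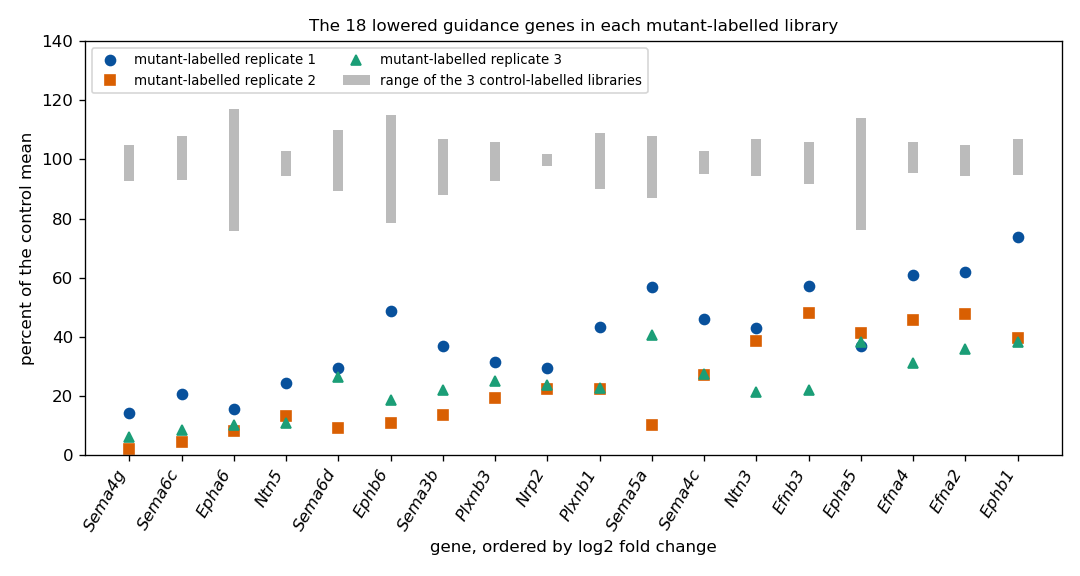
Each of the 18 lowered guidance genes in mutant-labelled replicates 1, 2 and 3, as percent of the mean of the control-labelled libraries, with the range of the 3 control-labelled libraries as a gray bar. Replicate 1 is the highest of the 3 mutant-labelled points in every gene but *Epha5*, and the medians are 39.9, 20.8 and 23.1%.

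Genes that act with these ligands and receptors were examined as 6 lists, and of the 77 genes tested 10 rose and 12 fell (28.6%, against 24.2% of all genes). An adjusted p at or under 0.05 was reached by 49.4% of them against 35%, and 67.5% did not overlap between the groups against 49.2%. By list, the share past the threshold ran from 0% for netrin and DCC signaling to 41.2% for other cues and coreceptors. It was 22.2% for Eph and ephrin signaling and 11.1% for Slit and Robo signaling, both under the share of all genes. Among 17 other cues and coreceptors, 3 rose and 4 fell. *Flrt3*, a binding partner of UNC5 receptors, rose from a mean of 1602 to 4450 (log2 fold change 1.47, adjusted p = 5.07e-05, limma) and the repulsive cue *Rgma* from 312 to 716 (1.18, adjusted p = 0.00294, limma). *Ntng1*, a netrin-like protein anchored by lipid, fell from 226 to 59.7 (-1.91, adjusted p = 0.00133, limma), as did *Dag1*, dystroglycan, a laminin receptor of SCs that also binds Slits, from 122494 to 44245 (-1.49, adjusted p = 0.000419, limma).

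Downstream of semaphorins and plexins, 3 of 16 genes rose and 3 fell. *Rnd1*, a GTPase that binds plexins, had the largest rise of the 6 lists, from 69.1 to 1699 (log2 fold change 4.61, adjusted p = 2.96e-06, limma). The collapsin response mediators, which bind tubulin and relay semaphorin signals, were split. *Dpysl3* rose from 1214 to 3713 (1.63, adjusted p = 8.56e-05, limma), *Dpysl2* fell from 4413 to 2053 (-1.12, adjusted p = 0.00056, limma), *Crmp1* did not pass (0.86, adjusted p = 0.114, limma), and *Dpysl5* and *Dpysl4* fell from 288 to 32 (-3.33, adjusted p = 0.00165, limma) and from 931 to 288 (-1.70, adjusted p = 0.000361, limma). In Eph and ephrin signaling, 1 of 18 genes rose, the kinase *Abl2* (1.27, adjusted p = 0.0214, limma), and 3 fell, among them the Rac exchange factor *Tiam1* (-1.68, adjusted p = 0.000216, limma) and the kinase *Fyn* (-1.34, adjusted p = 0.000337, limma).

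The Slit and Robo list had 1 fall among 9 genes, *Srgap1*, a GTPase-activating protein recruited by Robo, from 1843 to 914 (log2 fold change -1.03, adjusted p = 0.0013, limma), while the ligands *Slit2* and *Slit3* rose. None of the 6 netrin and DCC signaling genes passed the threshold, and 1 reached the adjusted limit. Among 11 small GTPases and actin effectors, 3 rose and 1 fell. The p21-activated kinases *Pak3* and *Pak1* rose from 13.5 to 129 (3.34, adjusted p = 0.00312, limma) and from 828 to 3385 (2.03, adjusted p = 1.62e-05, limma), and *Limk2*, a kinase that acts on cofilin, fell from 2342 to 962 (-1.30, adjusted p = 0.000745, limma).

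**Figure D5:**
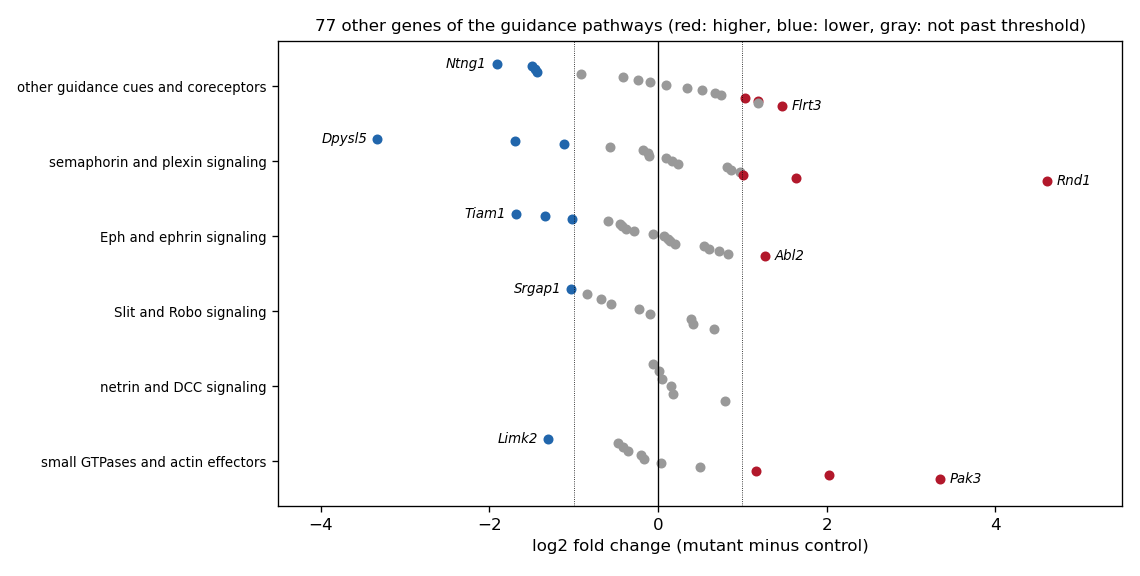
Log2 fold change of the 77 tested genes of the pathway lists, mutant-labelled minus control-labelled, on the horizontal axis, with the 6 lists on the vertical axis, 1 point per gene and dotted lines at 2-fold. The 10 genes that rose and the 12 that fell are coloured, with *Rnd1* at 4.61 and *Dpysl5* at -3.33 as the ends of the range.

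Markers of the cell types in the nerve also moved between the groups, and their part in the values of the guidance genes was not tested. Sums of markers are not scaled by gene, so each is weighted to its highest-valued genes and does not measure cell number. The summed level of 7 SC markers was 41736 to 49225 in the control-labelled libraries and 29016 to 33100 in the mutant-labelled ones. Of these, *S100b* (log2 fold change -3.07) and *Erbb3* (-1.55) fell, *Gfap* (3.35) rose, *Foxd3* was lower by less than 2-fold (-0.38, adjusted p = 0.0498, limma), and *Cdh19*, *Ngfr* and *Ncam1* did not pass. The 7 fibroblast markers summed to 1779894 to 2110026 against 725823 to 1066147, where *Col1a1* and *Col3a1* fell and the other 5 did not pass. *Col1a1* and *Col3a1* (control-labelled means 1243378 and 678876) made up most of this sum. The log2 fold changes of the other 5 lay between -0.43 (*Lum*) and 0.92 (*Dpt*). The 10 endothelial markers, which bear on *Robo4*, *Unc5b*, *Ephb4* and *Plxnd1*, summed to 20718 to 31257 against 29355 to 42427, and none passed the threshold in limma's test, while 3 reached the adjusted limit with higher values. Perineurial markers summed to 16883 to 20215 against 15912 to 18316, with 1 of 5 higher and 1 lower, and markers of pericytes and smooth muscle to 22874 to 43160 against 26834 to 66293, with 0 of 7 past the threshold.

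Cell types outside the nerve sheath differed as well. Skeletal muscle markers summed to 6529 to 34027 in the control-labelled libraries and 44018 to 323684 in the mutant-labelled ones, with 7 of 8 higher and replicate 3 of the mutant-labelled libraries at the top. Neuronal markers summed to 4549 to 5079 against 9469 to 10261 (3 of 7 higher). Many Eph, Robo and semaphorin genes are also neuronal, but members of these families moved in both directions. The part of neuronal RNA in their values was not tested. Macrophage markers summed to 9984 to 13636 against 4938 to 6600 (1 of 7 higher and 3 lower), and erythroid markers to 54935 to 76999 against 5133 to 15724 (5 of 6 lower). The macrophage sum was led by *Csf1r* and *Mrc1* (control-labelled means 4621 and 3602), which fell, while *Aif1* (log2 fold change 1.04) and *Itgam* (0.56) were higher. Lymphocyte markers stayed low, at 79.8 to 197 against 275 to 394 (3 of 6 tested higher), with *Cd3d*, *Cd8a* and *Ncr1* at 0 in the control-labelled libraries, and adipocyte markers spread from 5305 to 11315 against 3177 to 23388 (0 of 5). No marker of the 11 lists was at 0 in every library.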

How the data were processed

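The authors made oriented cDNA from poly-A RNA, sequenced it on a HiSeq2500, mapped the reads to mm10 with STAR 2.4.0, counted those on constitutive regions of FAST DB genes, and scaled each count by the size factor that DESeq2 gave the library. The deposited values are this signal for every gene, without the study's expression filter. Every value was a whole multiple of 1 read within 0.01 read, so read counts were recovered for edgeR and DESeq2.

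Members were picked by symbol with no value used, but these gene families, the pathway lists and the marker lists were proposed with earlier results of these data known. log2(value + 1) was fitted with limma (lmFit, eBayes with trend) over the 25802 genes with a mean of at least 10 in at least 1 group, 3 libraries against 3, and adjusted by Benjamini-Hochberg over all of them. The fold changes therefore understate those of low genes. Genes with a control-labelled mean under 10, such as *Robo3* (3.7), *Epha8* (3.06), *Unc5d* (4.64) and the marker *Gfap* (7.1), were tested only through their mutant-labelled values. Such genes could be called only as rises. The threshold of p and fold is the study's. Genes named are the 12 largest rises and 12 largest falls past the threshold and without overlap between the groups, 9 receptors and ligands listed by name, and up to 2 rises and 2 falls of each pathway list. Other members are given by value. *Dpysl2*, *Crmp1*, *Mbp* and, for their order among libraries, the SC markers were named after their values were seen. With 3 animals against 3 an exact permutation test of 1 gene cannot give a p below 0.1. R 4.3.3, limma 3.58.1, edgeR 4.0.16, DESeq2 1.42.0 and Python 3.11.15 were used, and limma was tested on simulated data. The values of 1 marker gene are not reported here, and it was left out of its list.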

Additional observations from a re-analysis of the deposited data

How the results depend on the processing

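Counts of guidance genes were recomputed under 12 alternatives and after leaving out any 1 of the 6 libraries. Members that rose numbered 11 to 17 and members that fell 14 to 20, with 11 rises where the adjusted p also had to be at or under 0.05, 14 falls without mutant-labelled replicate 3 and 20 without replicate 1. Of the 32 genes past the threshold, 24 passed under every setting that tested them (10 higher and 14 lower) and 0 reversed; *Epha8*, among the 24, was not tested with a minimum mean of 50. The 8 that did not always pass were *Robo2*, *Epha1*, *Epha2*, *Dcc*, *Efna2*, *Efna4*, *Efnb3* and *Ephb1*, and 8 others passed in some setting. Of the 38 members with an adjusted p at or under 0.05, 32 had it in every fit that tested them. The other 6 were *Sema5a*, *Efnb3* and *Ephb1*, which pass the threshold, and *Sema6b*, *Plxnc1* and *Robo1*, which do not, with adjusted p-values up to 0.125 over these fits. With edgeR 13 rose and 17 fell, and with DESeq2 13 and 17. Rescaling to the same total moved the members' median log2 fold change to 0.14 and to the same 75th percentile to 0.07, while the median of all genes became 0.20 and 0.13, so the members stayed 0.06 below it in each case (members minus all genes -0.06). Without 1 library the members' median lay between -0.09 and 0.03. Replicate numbers in the labels did not pair the samples (correlations of the deviations of same-numbered libraries -0.0619, -0.0555 and 0.00891), and the fit with a replicate block gave 13 rises and 18 falls. With few reads, *Robo3*, *Epha8*, *Unc5d* and *Slit1* have directions or sizes that depth limits.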
